A study of Mus musculus with 10 samples.

Results

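Of 10 mouse pancreatic cancer cell lines whose mRNA was sequenced, the 5 labelled KPCAf/f (A1693, A1809, A1925, A2441 and A3992) are described here on their own, without the lines of the other genotype. KPC usually stands for a widely used genetic mouse model of pancreatic cancer. The name KPCAf/f is not explained in the labels. Since the series title names Arid1a, A is taken to be that gene, with f/f for floxed alleles that a recombinase can delete. All 5 lines share this genotype label, the growth medium (DMEM with fetal bovine serum) and the library kit, and no treatment, age or time is given. Each line gave 1 library. The labels do not say whether each line came from its own mouse, or whether a line is a clone. With 1 library per line, the spread between lines holds differences between the lines and differences between cultures and libraries, which cannot be told apart. No test between lines was therefore run, and each statement below gives the values of the lines.

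Arid1a encodes a subunit that helps the SWI/SNF complex bind DNA, and this complex moves nucleosomes and opens chromatin at enhancers. Pancreatic cancer cells in culture can be epithelial, with E-cadherin (Cdh1) junctions, tight junctions and keratins, or mesenchymal, with vimentin (Vim), N-cadherin (Cdh2) and factors of the Snail, Zeb and Twist families that repress epithelial genes. States in between keep some epithelial genes while others are off.

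The smallest library was A2441, with 15124888 reads in genes, and the largest A1809, with 20419830, so that 1 read was worth between 0.818 and 1.12 normalized counts (gene counts divided by a library size factor). For a line at 0 reads a limit of 3 reads was used, or 2.46 to 3.37 normalized counts depending on the line. The exact 95% Poisson interval at 0 reads reaches somewhat higher, such as 3.32 in A1693. This limit and the intervals below cover counting error alone. Values in the text are normalized counts, given for A1693, A1809, A1925, A2441 and A3992 in that order wherever 5 values stand together. A range is the highest minus the lowest line in log2(normalized count + 1), and the added 1 makes it too small for low genes. Arid1a had 1785, 1253, 1510.0, 1258 and 1519 normalized counts, with A1809 and A2441 lowest and A1693 highest. A count over the whole gene does not show whether the floxed exons were removed.

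The lines were checked against markers of their labelled tissue. Pdx1, the homeobox factor of the pancreas, had 2.70 in A1693, 775 in A1809, 1679 in A1925, 1047 in A2441 and 869 in A3992, and the 95% Poisson intervals (exact) were 0.557 to 7.89 in A1693 and 726 to 826 in A1809. Cdh1 had 10.8 in A1693, 11884 in A1809, 8035 in A1925, 3143 in A2441 and 8307 in A3992. A1693 thus had almost none of either, from 3 reads of Pdx1 and 12 of Cdh1, and so it lacked the marker of its labelled tissue. A1693 also had almost no Xist, the long RNA that coats the inactive X chromosome: Xist had 3.60, 5278, 15437, 18451 and 12466 normalized counts. Reads of Xist and of its antisense gene Tsix cannot be told apart without the strand setting of the counting, which is not given in the sources used here. The 4 Y-linked genes Ddx3y, Eif2s3y, Kdm5d and Uty had at most 3 reads in any of the 5 lines, A1693 included. Reads of Gm42418, a gene that overlaps ribosomal RNA, made up 0.878% of the A1693 library and 0.0955% to 0.427% of the others, and the part of this in the values of A1693 was not tested. Counts that follow are therefore given with and without A1693.

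Over 10660 genes with a mean of at least 100 normalized counts, the median range over the 5 lines was 0.96, and 5067 genes (47.5%) differed at least 2-fold between the highest and the lowest line. A range of at least 16-fold was found in 1036 genes (9.72%). Without A1693 there were 672 such genes (6.3% of 10669), and 631 of them were among the 1036. Leaving out A1809 in place of A1693 left 680, so these 2 lines bore on the count about equally. At the threshold, Gsdmd was just inside (4.0004) and Tmem79 just outside (3.997). A range of at least 8 log2 units was found in 264 genes (2.48%), and in 83 without A1693. The genes with a 16-fold range had a median transcript length of 3571 bases, beside 3529 over all 10660, and a lower median level (321 beside 800 normalized counts).

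**Figure D1:**
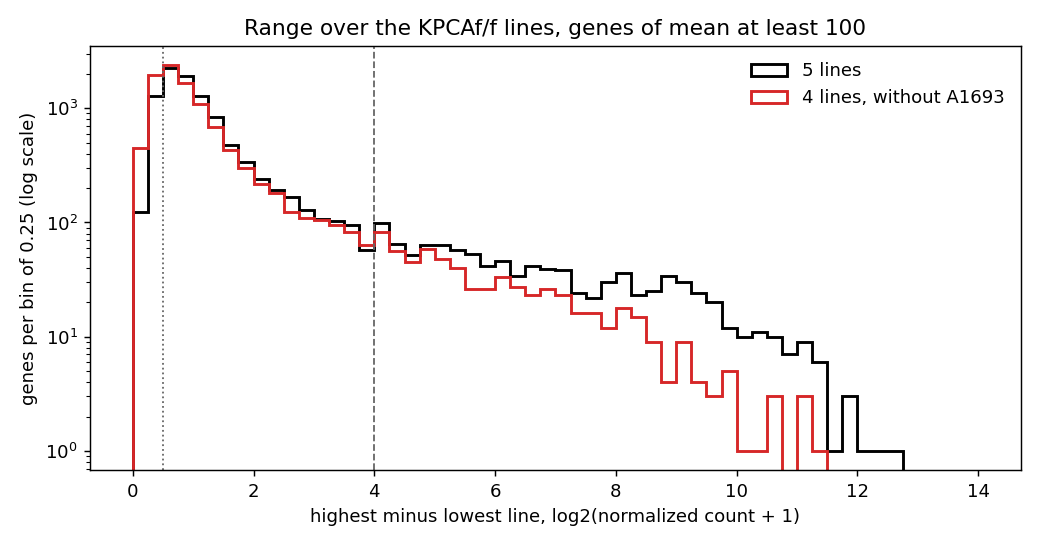
Distribution of the range over the lines (x axis, highest minus lowest line in log2 units) against the number of genes per bin of 0.25 (y axis, log scale), for all 5 lines (black) and without A1693 (red). The dotted line marks a range of 0.5 and the dashed line a range of 4; 1036 genes lie at or beyond 4 with all 5 lines and 672 without A1693.

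The largest gap in the ordered values showed which lines parted from the rest. Of the 1036 genes, 311 (30.0%) had A1693 alone below the other 4 lines, 147 had A1809 alone below, and 108 had A1809 alone above. The next pattern, A1693 and A2441 together below the rest, held 50 genes. In pairs of lines, the number of genes at least 4-fold apart was highest between A1693 and A1809 (1327, 12.4%). A1693 differed in this way from A3992 in 1111 genes (10.4%), from A2441 in 990 (9.29%) and from A1925 in 915 (8.58%). A1809 differed from A2441 in 1019 (9.56%), from A1925 in 900 (8.44%) and from A3992 in 848 (7.95%), and A2441 from A3992 in 846 (7.94%). The closest pairs were A1925 with A2441 (453, 4.25%) and A1925 with A3992 (514, 4.82%). In a principal component analysis of the 5 lines the first component held 48.3% of the variance and placed A1693 and A1809 at its ends, with A1925 and A2441 near its middle. Without A1693 the first component held 53.2% and A1809 stood opposite A1925 and A2441.

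By the SD of log2(normalized count + 1) over the lines, the most variable gene was Grb10 (SD 5.14), an imprinted adaptor of insulin and growth factor receptors. It had 3141 in A1693, 9.82 in A1809, 2499.8 in A1925, 1.12 in A2441 and 3175 in A3992 normalized counts, so that 3 lines were high, while A1809 had 12 reads and A2441 had 1. Grb10 also had the largest SD without A1693 (5.40). By range other genes were wider, such as Mal with 12.63 beside 10.55 for Grb10, and without A1693 Esrp1 with 11.39. St14, the membrane serine protease matriptase, had 0.900, 7062, 10.1, 2.25 and 314, Esrp1, a splicing regulator of epithelial cells, had 0, 2689, 0, 8.99 and 84.6, and Ap1m2, the epithelial subunit of a clathrin adaptor, had 0, 2359.6, 0, 4.50 and 30.8. In these 3 genes A1809 was high, A3992 was far below it and the other 3 lines were at or near 0. Krt7, a keratin of ducts, was high in both A1809 and A3992 (10.8, 32444, 1808, 168 and 20393). Hnf4a, a nuclear receptor of gut and liver, was highest in A3992 and nearly absent in A1693 (1.8, 1543, 3273, 645 and 6618), as were Tmprss2, a surface protease (0.900, 2474, 1436, 251 and 5290.0), and Abcc3, an organic anion transporter (0.900, 1886, 1872, 118 and 5288).

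Some wide genes followed other groupings of the lines. Cldn18, a claudin of stomach and lung, was high in A2441 and A1809 and low in A1693, A1925 and A3992 (9.90, 3379, 25.3, 8612 and 36.1). Dkk1, a secreted Wnt antagonist, was high in A1925 alone (3.60, 0, 2105, 1.12 and 0). Casp1, the protease of inflammasomes, was high in A2441 alone (3.60, 0, 0, 759.9 and 0.881). Sh3gl2, endophilin A1, was high in A1809 and A3992 (0, 337, 1.69, 0 and 259.9). Cck, the peptide hormone cholecystokinin, was highest in A2441 and A1925 (0.900, 69.6, 2421, 4525 and 436). Wnt4, a Wnt ligand, was high in A1925, A2441 and A3992 and at 2 and 3 reads in A1693 and A1809 (1.8, 2.46, 1454, 705 and 370.1).

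Cdh1 ordered the lines as A1693, A2441, A1925, A3992 and A1809 from low to high. The intervals of A1925 (7875 to 8198) and A3992 (8140 to 8476) overlapped, and their order is not firm. With a range of at least 2-fold required, 173 genes (1.62%) followed this order in all 5 lines and 105 (0.985%) followed its reverse. With A1925 and A3992 counted as tied there were 240 and 153. Over the 4 lines without A1693 the order held in 338 genes (3.17%) and its reverse in 328 (3.07%). Of the 173 genes, 57 had fewer than 10 normalized counts in A1693, 141 kept a range of at least 2-fold without A1693, and 51 kept one of at least 16-fold. A shared order of 5 values is a weak measure of likeness, and the counts are given as a description.

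Among the genes in this order, Ehf, an ETS factor of epithelial cells, had the smallest root mean square difference from Cdh1 after centring (0.30 in log2 units). The low value of A1693 weighs heavily on this measure, since the range of Cdh1 was 9.98 with A1693 and 1.92 without. Genes outside the order were near by it too, such as Pcdh1 (0.66) and Pdx1 (0.92). Without A1693 the range of Ehf was 1.47. Ehf had 0 in A1693, 1239.9 in A1809, 872 in A1925, 446 in A2441 and 1234 in A3992. Ripk4, a kinase of epidermal differentiation, had 2.70, 1819, 548, 162 and 1529.5, and Slc4a4, the sodium bicarbonate cotransporter of ducts, had 31.5, 3775, 1941, 683 and 3682. In these 3 genes A2441 was the lowest of the 4 lines that had Cdh1, as the rule of order requires. Vil1, the actin bundler of microvilli (4.50, 1111, 479, 76.4 and 695), Epn3, an endocytic epsin (5.40, 1737, 314, 283 and 1023), and Card10, a scaffold of NF-kB signalling (2.70, 1206, 301, 292 and 396), followed the order too. Lsr, which recruits proteins to the corners of tight junctions, had 6.30, 3461, 518, 238 and 3174, and A1809 and A3992 were several times above A1925 and A2441. Spint2, a membrane inhibitor of serine proteases such as matriptase, had 54.0, 4645, 2257, 511 and 3893.

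Genes in the reverse order were highest in A1693, which is set by the rule that chose them. Trps1, a GATA-type repressor, had 1874 in A1693, 40.9 in A1809, 105 in A1925, 138 in A2441 and 64.3 in A3992, and the lines other than A1693 lay between 40.9 and 138. Etv1, an ETS factor, had 974, 27.0, 168, 274 and 32.6, and Bnc2, a zinc finger factor, had 365, 7.37, 42.2, 135 and 40.5. Aebp1, a matrix protein that binds collagen, had 9371, 462, 2762, 3224 and 1069.6, and Dnm1, the neuronal form of the endocytic GTPase dynamin, had 2164, 27.0, 660.1, 877 and 113. Bcat1, which starts the breakdown of branched-chain amino acids, had 2560.3, 230.0, 385, 1265 and 278.

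Some epithelial genes were high in A1809 and far lower in the other 3 lines with Cdh1. Epcam, an epithelial adhesion protein, had 15.3 in A1693, 6720.3 in A1809, 37.9 in A1925, 38.2 in A2441 and 295 in A3992, so that A1925 and A2441, with 8035 and 3143 counts of Cdh1, had about 38 of Epcam. Cldn4, a sealing claudin of tight junctions, had 1.8, 12503, 53.1, 39.3 and 362, Cldn7 had 0.900, 3169.8, 16.02, 8.99 and 107, and Grhl2, a transcription factor of epithelial junction genes, had 0.900, 1665, 16.9, 3.37 and 18.5. Rab25, a GTPase of epithelial recycling endosomes, had 4.50, 2921, 4.22, 10.1 and 1.76. Cldn4, Cldn7 and Grhl2 are among the 173 genes in the order of Cdh1, and Epcam and Rab25 are not. In these 5 genes A1809 was far above the rest, while A1925, A2441 and A3992 had 3143 to 8307 normalized counts of Cdh1 beside 362 or fewer of each. Of all genes, 59 (0.553%) were at least 16-fold above the next line in A1809.

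**Figure D2:**
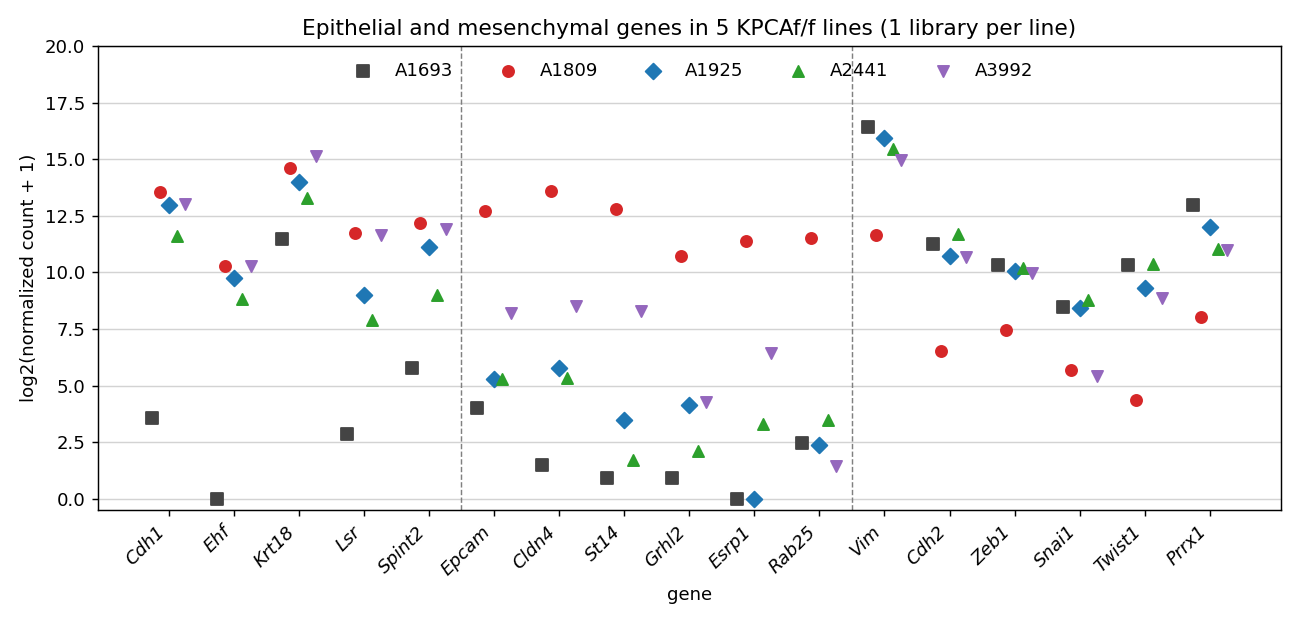
Each point is 1 line, with log2(normalized count + 1) on the y axis and genes on the x axis: left, genes read in all 4 lines with Cdh1; middle, epithelial genes high in A1809; right, mesenchymal genes. In the middle block A1809 (red circles) lies above the other 4 lines for every gene, for Epcam at 6720.3 against at most 295 normalized counts, and in the right block A1809 is the lowest line for every gene drawn except Snai1, where A3992 is lowest.

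Promoter sequences are shown for 5 of these genes because they hold the 6-base E-box CACCTG or its reverse complement CAGGTG, which Snail and Zeb repressors are known to bind. The sequences are the 250 bases before the gene's start in RefSeq (GRCm38.p6), on the gene's strand, with the matches in capitals. Lsr and Spint2 followed the order of Cdh1. Epcam, Rab25 and Cldn4 were at least 16-fold above the next line in A1809, and Cldn4 followed the order of Cdh1 as well. The regions are chr7:30973470-30973719 (minus strand) for Lsr, chr7:29281978-29282227 (minus strand) for Spint2, chr17:87635729-87635978 (plus strand) for Epcam, chr3:88548280-88548529 (minus strand) for Rab25 and chr5:134946935-134947184 (minus strand) for Cldn4.
Lsr: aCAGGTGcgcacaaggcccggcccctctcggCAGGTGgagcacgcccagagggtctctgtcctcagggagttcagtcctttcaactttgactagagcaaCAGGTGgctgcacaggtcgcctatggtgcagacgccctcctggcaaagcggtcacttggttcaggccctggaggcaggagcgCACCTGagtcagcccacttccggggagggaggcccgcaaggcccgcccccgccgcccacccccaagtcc
Spint2: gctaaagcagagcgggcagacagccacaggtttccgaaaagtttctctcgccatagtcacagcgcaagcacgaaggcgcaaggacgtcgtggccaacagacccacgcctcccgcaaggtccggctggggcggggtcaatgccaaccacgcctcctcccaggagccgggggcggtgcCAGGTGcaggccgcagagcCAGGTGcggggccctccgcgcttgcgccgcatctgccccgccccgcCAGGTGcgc
Epcam: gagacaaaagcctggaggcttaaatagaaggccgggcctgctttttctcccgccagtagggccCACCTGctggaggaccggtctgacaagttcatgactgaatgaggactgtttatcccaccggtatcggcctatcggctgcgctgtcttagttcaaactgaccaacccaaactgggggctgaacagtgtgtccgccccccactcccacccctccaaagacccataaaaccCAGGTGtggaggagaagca
Rab25: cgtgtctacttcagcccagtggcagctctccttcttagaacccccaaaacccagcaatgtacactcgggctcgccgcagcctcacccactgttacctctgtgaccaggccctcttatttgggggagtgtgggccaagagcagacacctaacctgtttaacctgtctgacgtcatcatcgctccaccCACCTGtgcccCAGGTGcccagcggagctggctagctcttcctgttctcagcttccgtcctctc
Cldn4: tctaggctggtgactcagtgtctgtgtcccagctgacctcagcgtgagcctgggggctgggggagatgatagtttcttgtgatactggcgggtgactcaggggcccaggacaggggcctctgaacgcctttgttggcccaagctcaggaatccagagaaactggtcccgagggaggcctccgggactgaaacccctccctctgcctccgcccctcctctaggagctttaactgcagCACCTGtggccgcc
The Lsr window held 4 matches, Spint2 3, Epcam and Rab25 2 each, and Cldn4 1, with no overlap between matches. Of 27025 RefSeq promoters, 17.1% held at least 1 match on either strand, and of the 8284 found for genes of mean at least 100, 14.5% did. Among the genes in the order of Cdh1, 38 of the 117 with a promoter (32.5%) held a match, beside 11 of 74 (14.9%) in the reverse order and 14 of 38 (36.8%) among those high in A1809. No promoter was available for Cdh1, Ehf, Esrp1, St14 or Grhl2. Promoters were found for 117 of 173, 74 of 105 and 38 of 59 genes, beside 8284 of 10660. The shares therefore describe a part of these sets. These sets overlap, since 8 genes, 4 of them with a promoter, were both in the order of Cdh1 and high in A1809. At least 2 matches were found in 1.77%, 7.69%, 1.35% and 13.2% of the genes of mean at least 100, of the 2 orders and of those high in A1809. A match is a run of letters in this window and not a measured binding site.

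The Snail and Zeb repressors were measured, with other factors of the list of transcription factors of epithelial-mesenchymal transition (EMT). Snai1 had 359 in A1693, 50.7 in A1809, 339 in A1925, 445 in A2441 and 42.3 in A3992, with A1809 and A3992 low. Snai2 had 542, 69.6, 539, 442 and 88.1 and Twist2 had 691, 15.6, 593, 232 and 8.81, again low in A1809 and A3992. Zeb1 was low in A1809 alone (1302, 173, 1077, 1174 and 996), as were Twist1 (1273, 19.6, 639.9, 1304 and 469) and Prrx1, a homeobox factor of mesenchyme (7967, 259, 4153, 2065 and 2033). Zeb2 had 755, 62.2, 1056, 1775 and 157 and was highest in A2441. Foxf2, a forkhead factor of gut mesenchyme, was highest in A1925 and A2441 and lowest in A1693 and A1809 (6.30, 10.6, 1289, 664 and 152). The EMT list holds Snail, Zeb and other families. Of its 15 factors with a mean of at least 100, 7 had a 16-fold range, beside 9.72% of all genes. Without A1693, 5 of 14 had one, beside 6.3% of all genes. A1925 and A2441 thus carried Cdh1 together with Zeb1 and Snai1 at levels near those of A1693. Bulk RNA does not show whether 1 cell held both.

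Vim, the mesenchymal intermediate filament, had 86632 in A1693, 3198 in A1809, 62292 in A1925, 44592 in A2441 and 31729 in A3992 normalized counts. It was lowest in A1809, and A1925, A2441 and A3992 had it beside Cdh1. Cdh2 followed the same outline (2429.7, 92.5, 1703, 3306 and 1663), as did S100a4, a calcium-binding protein of motile cells (3532, 125, 4193, 2324 and 1899.6), and Fgfr1, a fibroblast growth factor receptor (3417, 204, 2830.2, 1922 and 521). Smooth muscle genes did not: Acta2 had 645, 2987, 96.1, 2749.7 and 1113, Tagln 131, 1038, 65.8, 731 and 639.7 and Cnn1 8.10, 158, 16.9, 574 and 88.1, lowest in A1693 or A1925. As a whole, the list of mesenchymal cell and cytoskeleton genes had mean log2(normalized count + 1) of 9.38, 9.05, 8.94, 9.93 and 9.51. It was lowest in A1925. A1809 was the highest line in 6 of its 30 members, a share near the 23.2% of all genes. The matrix list had 9.27, 8.29, 9.39, 8.97 and 8.71, lowest in A1809, with a range of 1.10. Of 37 matrix genes of mean at least 100, 13 had a 16-fold range, beside 9.72% of all genes. Without A1693, 8 of 36 had one, beside 6.3% of all genes. Col1a2, a chain of type I collagen, had 71336, 3995, 1521, 959 and 4019, and A1693 was at least 16-fold above the rest, while Col1a1, which encodes the other chain, was lowest in A1693 (3259, 9533, 6566, 17935 and 8254). Postn, a matrix protein, was highest in A1809 (44.1, 1855, 25.3, 6.75 and 89.9), and Mmp2, a gelatinase, highest in A1693 (1773, 57.3, 56.5, 29.2 and 360.4).

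The level of a gene list is the mean of log2(normalized count + 1) over its members in the table, and 13 of 39 lists had a range of at least 2 over the lines. Without A1693 the number was 5. The list of epithelial junctions had the widest range, with levels of 5.29, 11.43, 7.98, 7.22 and 9.15. Of its 34 members with a mean of at least 100, 25 had a 16-fold range, beside 9.72% of all genes. Without A1693, 17 of 34 did, beside 6.3% of all genes. A1809 was the highest line in 27 of its 35 members, beside 23.2% of all genes. Junction genes of narrow range were Ctnna1, an alpha-catenin (12254, 19263, 16553, 19917 and 23018), and Ctnnb1, beta-catenin (16649, 17680.1, 27145, 20801 and 32401), which also act in other adhesion complexes. Keratins and epithelial surface genes had levels of 3.23, 8.77, 7.52, 6.49 and 8.31. A1693 kept some of these, with 2466, 11886, 20679, 10399 and 36827 of Krt8 and 2808, 25261, 16041, 10044 and 36624 of Krt18 over the 5 lines, while Krt19 had 608, 8381, 9964, 5937 and 30342.

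**Figure D3:**
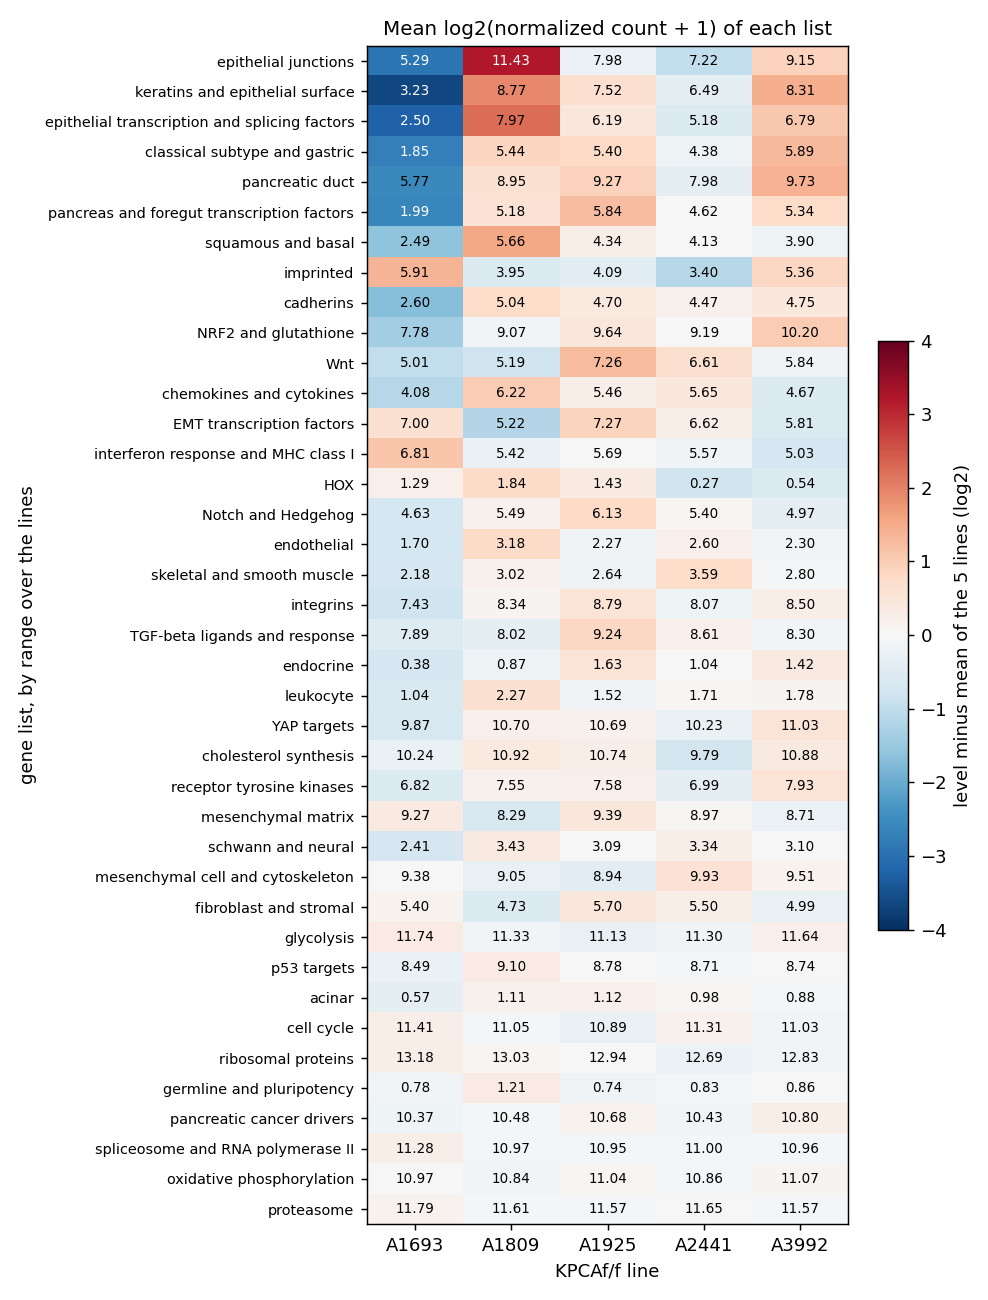
Each cell prints the level of a list (mean log2(normalized count + 1) of its members) in 1 line, with lists in rows by their range and lines in columns, and the colour is the level minus the mean of the 5 lines. The 7 lists at the top are epithelial, ductal, gastric or squamous and are lowest in A1693, while proteasome genes at the bottom run from 11.57 to 11.79.

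Pancreas and foregut transcription factors had levels of 1.99, 5.18, 5.84, 4.62 and 5.34. Of 14 members of mean at least 100, 11 had a 16-fold range, beside 9.72% of all genes (4 of 14 without A1693, beside 6.3%). Foxa2, a forkhead factor of endoderm, had 0, 277, 658, 243 and 1254, and Gata6, a zinc finger factor of foregut and of the classical subtype of pancreatic cancer, had 15.3, 452, 391, 397 and 1006. Both were near 0 or low in A1693 and highest in A3992. Sox9, a duct and progenitor factor, was instead highest in A1693 and lowest in A1809 (945, 46.7, 788, 233 and 212), and Gata4 was read in all 5 lines (1264, 572, 911, 670.0 and 2322). Cdx2, a homeobox factor of intestine, was highest in A1925 (0, 36.0, 530.3, 219 and 51.1). Sox17 was highest in A1809 and A3992 (0, 493, 17.7, 0 and 106).

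Genes of the classical subtype and of the stomach had levels of 1.85, 5.44, 5.40, 4.38 and 5.89. Of 13 members of mean at least 100, 12 had a 16-fold range, beside 9.72% of all genes (6 of 13 without A1693, beside 6.3%). Tff1, a trefoil peptide of gastric mucus, was highest in A3992 and A1925 (0.900, 19.6, 1173, 127 and 2189), and Lgals4, a galectin of gut epithelium, was highest in the same lines (47.7, 1576, 9754, 1548 and 9535). Ctse, the gastric protease cathepsin E, was high in A1809 and A3992 (2.70, 1462, 608, 30.4 and 1419). Squamous and basal genes were highest in A1809, with levels of 2.49, 5.66, 4.34, 4.13 and 3.90. Sfn, the 14-3-3 sigma protein, had 7.20, 4287, 28.7, 30.4 and 52.0, and S100a14 had 0.900, 2497, 12.6, 16.9 and 21.1. The basal markers Krt5 and Krt17 were at 0 reads in every line, and Trp63 was at or under 24.6 normalized counts, so that only a part of that list was present in A1809.

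Duct genes were highest in different lines. Their levels were 5.77, 8.95, 9.27, 7.98 and 9.73. Of 19 members of mean at least 100, 15 had a 16-fold range, beside 9.72% of all genes (10 of 19 without A1693, beside 6.3%). Clu, a secreted chaperone, had 546 in A1693, 57048 in A1809, 48079 in A1925, 6121 in A2441 and 154900 in A3992. Aqp5, a water channel, was highest in A2441 (397, 2931, 8091, 25419.7 and 1224), Car2, a carbonic anhydrase, in A1809 (153, 4623, 470.4, 57.3 and 1112), and Cftr, the chloride channel of ducts, in A3992 (122, 248, 98.6, 8.99 and 689). Cp, the copper oxidase ceruloplasmin, was highest in A1925 (54.0, 291, 6117, 3096 and 945). Spp1, osteopontin, was high in every line (126207, 52738, 214168, 78692 and 114437).

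Acinar, endocrine and leukocyte markers were mostly near the floor, and those of endothelium, nerve and muscle in part. Of 26 acinar genes, 19 had 3 reads or fewer in every line, as did 18 of 27 endocrine, 15 of 27 leukocyte, 6 of 20 endothelial, 6 of 20 Schwann and neural and 8 of 22 muscle genes. Cd3e, Ins1, Ins2, Gcg and Myog had 0 reads in each of the 5 lines. Ptprc, the pan-leukocyte phosphatase, had 0.900, 9.82, 0.843, 2.25 and 1.76, and Pecam1 of endothelium had 1.8, 0.818, 0, 6.75 and 1.76. Cdh5, endothelial VE-cadherin, was however read in A2441 and A1809 (0, 106, 1.69, 644 and 24.7). Fibroblast and stromal genes are shared with mesenchymal tumour cells and were not at the floor. Their summed normalized counts were 25005, 13445, 22195, 27736 and 13907, with 2 of 26 at 3 reads or fewer in every line. The level of the list as a whole was highest in A1925 (5.40, 4.73, 5.70, 5.50 and 4.99). Lum, a collagen-binding proteoglycan, was instead highest in A1693 (126, 2.46, 0.843, 1.12 and 7.05). The part of fibroblast and stromal genes in the mesenchymal values was not tested.

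Signalling genes differed in composition between lines. Wnt ligands, receptors and inhibitors had levels of 5.01, 5.19, 7.26, 6.61 and 5.84. Of 24 members of mean at least 100, 14 had a 16-fold range, beside 9.72% of all genes (11 of 23 without A1693, beside 6.3%). Wnt7a and Wnt7b, a related pair of ligands, were highest in A1809 (0.900, 3384, 49.7, 173 and 621 and 9.90, 5247, 512, 459 and 442). Wnt10a was high in A1809, A1925 and A2441 (4.50, 503, 934, 1409.7 and 6.17). Axin2 and Notum, feedback inhibitors that Wnt signalling is known to switch on, were highest in A1925 and A2441, Axin2 with 7.20, 15.6, 137, 415 and 114 and Notum with 8.10, 0.818, 597, 715 and 37.9. Grem1, a secreted antagonist of bone morphogenetic proteins, was high in the same lines (788, 2644, 25320.5, 31079 and 941). Tgfbr3, a co-receptor of TGF-beta, was nearly absent from A1809 (2257, 4.09, 863, 762 and 189). Egfr, the epidermal growth factor receptor, ranged from A2441 to A3992 (883, 1644, 2699, 230.5 and 5196), and Erbb3 was highest in A1809 (21.6, 3144, 287, 65.2 and 681).

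Chemokines and cytokines had levels of 4.08, 6.22, 5.46, 5.65 and 4.67. Of 17 members of mean at least 100, 11 had a 16-fold range, beside 9.72% of all genes (10 of 18 without A1693, beside 6.3%). Il1a, interleukin 1 alpha, was high in A1809 alone (0, 1515, 0, 5.62 and 0.881). Cxcl5, a neutrophil attractant, was highest in A1809 too (13.5, 3191, 233, 956 and 107), while Cxcl12, the ligand of Cxcr4, was highest in A1693 and lowest in A2441 (5372, 146, 1723, 13.5 and 1560.4). Ccl2, a monocyte attractant, was nearly absent from A3992 (365, 90.8, 269, 456 and 3.52), and Il33, an alarmin, was highest in A1925, A2441 and A3992 (64.8, 516, 8246, 4037 and 8825). Genes of the NRF2 and glutathione list were highest in A3992 (7.78, 9.07, 9.64, 9.19 and 10.20). Aldh3a1, an aldehyde dehydrogenase, had 26.1, 25.4, 4596, 5805 and 6099.7, with A1693 and A1809 far below the other 3 lines. Imprinted genes were highest in A1693 (5.91, 3.95, 4.09, 3.40 and 5.36). Of 10 members of mean at least 100, 9 had a 16-fold range, beside 9.72% of all genes (6 of 7 without A1693, beside 6.3%). Among them Peg10, a retrotransposon-derived gene, had 5543, 31.1, 91.9, 7.87 and 278 and Dlk1, a Notch-like ligand, had 3157, 4.09, 3.37, 79.8 and 66.1.

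Of 38 genes of pancreatic cancer, all with a mean of at least 100, 4 (10.5%) had a 16-fold range, near the 9.72% of all genes. A range of at most 0.5 was found in 7, beside 13.2% of all genes. Their median range was 1.01, beside 0.96 over all genes. Trp53 had 119.7 in A1693, 153 in A1809, 121 in A1925, 173 in A2441 and 771 in A3992, and A3992 was more than 4-fold above every other line. A count over the whole gene does not show which allele of Trp53 was read. Of 19 measured p53 target genes of mean at least 100, 2 (10.5%) had a 16-fold range, again near the 9.72% of all genes, and their median range was 1.21. Cdkn1a, the p53-induced cell cycle inhibitor, was lowest in A3992 (164, 521, 216, 672 and 129.5) and Mdm2, which marks p53 for degradation, did not set A3992 apart (1215, 1159.7, 1085, 818 and 1196). Cdkn2a, which encodes the p16 and Arf inhibitors, was read in every line (10339, 3729.7, 6579, 5227 and 3893). Smad4 (1924, 2439, 1864, 2119 and 2253) and the SWI/SNF ATPase Smarca4 (7135, 6584, 5677, 6092 and 6726) were at like levels. Myc was highest in A1693 (11383, 4975, 3332, 2943 and 3852) and Mycn lowest there (1.8, 507, 152, 22.5 and 477).

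Genes constant over the lines, with a range of at most 0.5 in log2 units, numbered 1409 (13.2%), and 2394 (22.4%) without A1693, of which 1408 were shared. Spop was just inside this limit and Leng1 just outside it. The gene of smallest SD was Gtf3c4, a subunit of the general factor of RNA polymerase III, with 1706 in A1693, 1707 in A1809, 1674 in A1925, 1666 in A2441 and 1708 in A3992. Dph3, of diphthamide synthesis, had 772, 743, 749.5, 739.7 and 742, Pak2, a kinase that acts below Rac and Cdc42, had 3169.7, 3253, 3106, 3168 and 3216, and Pigt, of the complex that attaches GPI anchors, had 2205, 2249.9, 2327, 2337 and 2276. Clp1, an RNA kinase (396, 385, 383, 372 and 376), and Mta2, of the NuRD complex (4868, 5150.5, 5134, 5329 and 5008), also had small ranges. With TMM scaling, a different library scaling, the range of Gtf3c4 was 0.079 and those of Pak2 (0.065) and Dph3 (0.077) were smaller. Usp7, a deubiquitinase, was even in 4 lines and higher in A1693 (4941, 3477, 3381, 3453 and 3441), and Ak3, a mitochondrial adenylate kinase, was even in 4 lines and lower in A1693 (1562, 3807, 3753, 3879.5 and 3734). None of the 40 cell cycle, 36 ribosomal, 30 proteasome, 32 spliceosome and 36 oxidative phosphorylation genes of mean at least 100 had a 16-fold range, and 15 of the 30 proteasome genes were constant. Median mean level was 1191 normalized counts for constant genes, beside 800 over all.

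The most abundant genes joined housekeeping genes and genes that varied. Spp1 had the highest mean (117249 ± 61502 normalized counts, SD, n = 5) and also the highest mean per kilobase of its longest transcript (77803 normalized counts per kb, beside 64552 for Eef1a1, the translation elongation factor). Eef1a1 had 149804, 103437, 115353, 107171 and 103265, Hsp90ab1, a chaperone, had 90869, 64289, 58445, 61732 and 51168, and mt-Co1, a mitochondrial subunit of cytochrome oxidase, had 66267, 73745, 119526, 71284 and 64815. Unnamed genes, such as Gm42418 with a mean of 60628, and pseudogenes were left out of these rankings. The top 15 by mean also held Clu and Vim, whose values are given above. Fn1, the matrix protein fibronectin, was among them too and was lowest in A3992 (64339.9, 32088, 43086, 36699 and 10923). Mitochondrial transcripts took 1.26% to 1.89% of the reads of a line.

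Each line had genes that parted it from the next line. At least 16-fold above the next line were 9 genes in A1693 (0.0844%), 3 in A1925 (0.0281%), 7 in A2441 (0.0657%) and 5 in A3992 (0.0469%), beside the 59 in A1809. At least 16-fold below were 150 in A1693 (1.41%), 43 in A1809 (0.403%), 2 in A1925 (0.0188%), 7 in A2441 (0.0657%) and 9 in A3992 (0.0844%). By these counts A1693 had more genes far below the next line than far above it, and A1809 had genes of both kinds. The counts above and below are not on equal terms. A gene high in a single line passes the filter on the mean only through that line. With a median of at least 100 in place of the mean, 185 genes were apart on either side, beside 292. The counts depend on the pseudocount, since many of these genes had few reads in the low lines. With each gene counted once, a pseudocount of 10 gave 146 genes in place of 292.

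Highest in A1693 were Fndc3c1, a gene with fibronectin domains (2010.2, 2.46, 0.843, 0 and 41.4), Il1rl1, the receptor of interleukin 33 (9988, 29.5, 314, 58.5 and 157), Hoxa5, a homeobox factor (510.4, 28.6, 9.27, 3.37 and 5.29), and Emilin1, an elastic fibre protein (2251, 132, 100.3, 20.2 and 38.8). Lowest there, beside Xist, Ehf and Cdh1, were Pcdh1, a protocadherin (0.900, 2089, 1013, 1148 and 756), and Anxa10, an annexin of gastric epithelium (0, 504, 896, 369 and 3169). In A1809, beside the epithelial genes above, Tmem30b, a flippase subunit, had 1.8, 1603, 0.843, 1.12 and 3.52 and Kcnk1, a potassium channel, had 0, 2144, 11.8, 2.25 and 7.93. Lowest in A1809 were Amigo2, an adhesion protein (251, 0, 132, 169.7 and 119.8), Crabp1, a retinoic acid binding protein (6814, 2.46, 2564, 184 and 725), and Xdh, xanthine dehydrogenase (2439.6, 22.1, 1206, 1440.1 and 1173).

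In A1925, beside Dkk1, the highest genes were Vip, a neuropeptide (2.70, 8.18, 623, 1.12 and 0), the Wnt antagonist Sfrp1 (76.5, 20.5, 971, 8.99 and 63.4), Ebf2, a transcription factor (17.1, 0.818, 542, 12.4 and 43.2), and Cd34, a sialomucin (216, 15.6, 4470.1, 458 and 218). Col4a6, a basement membrane collagen chain, was lowest there (558, 104, 0.843, 291 and 94.3). In A2441, beside Casp1, Slc6a12, a betaine transporter, had 2.70, 5.73, 2.53, 524 and 0 and Sncg, gamma-synuclein, had 0.900, 4.09, 46.4, 748 and 1.76. Fez1, a kinesin adaptor, was nearly absent from A2441 (3342, 383, 175, 1.12 and 275), as was Tmem47, a junction protein (550.0, 417, 223, 0 and 85.5). In A3992 the highest were Nell2, a secreted neural protein (0, 7.37, 106, 107 and 3443), Nkx2-3, a homeobox factor of gut (0, 34.4, 60.7, 55.1 and 988), and Pax6, a factor of eye and islet (0, 0, 12.6, 63.0 and 836). Flt1, a VEGF receptor, was lowest there (2675, 218, 543, 1076 and 7.93), and so was Ifitm1, an interferon-induced membrane protein (34.2, 31.1, 386, 943 and 0).

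**Figure D4:**
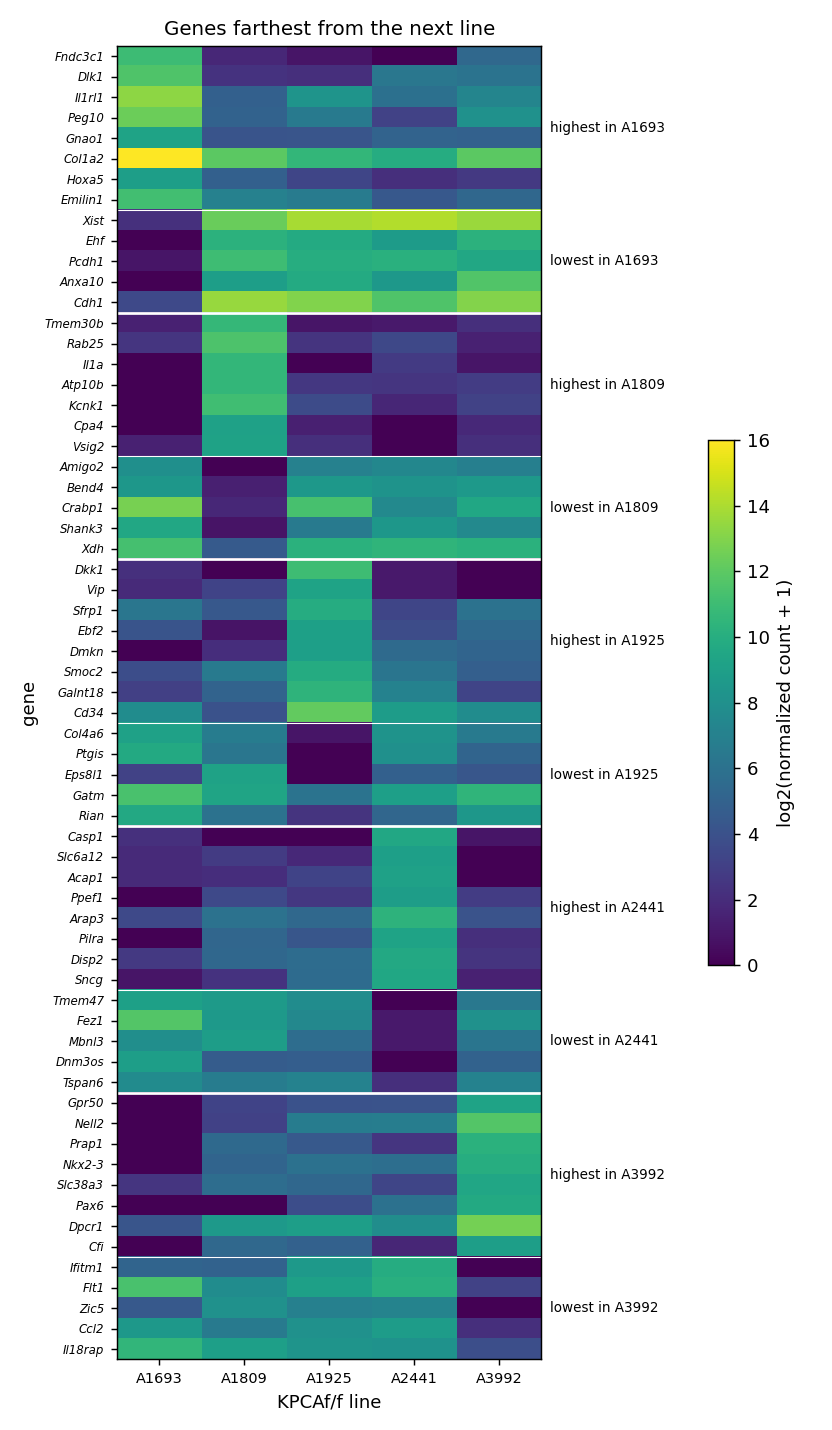
Genes in rows, grouped by the line in which they lie farthest above (highest) or below (lowest) the next line, lines in columns, and log2(normalized count + 1) as colour. The genes were chosen for this contrast, so the blocks of colour are fixed by the choice; what the plot shows is the level in the other 4 lines, such as Ccl2 from 90.8 to 456 in the lines other than A3992.

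Levels were also read along the chromosomes, a search made after values were seen. Each gene was set against its median over the 5 lines, and medians of these deviations over a chromosome lay beyond 0.3 in 5 of 100 combinations of chromosome and line. They were chromosome 8 in A3992 (-0.52) and in A1809 (0.34), chromosome 10 in A2441 (-0.51), and chromosomes 13 (-0.34) and 14 (-0.32) in A1809. On chromosome 10, A2441 was the lowest line for 306 of 491 genes (62.3%), beside 18.1% of all genes. On chromosome 8, A3992 was lowest for 305 of 576 genes (52.95%), beside 19.1% of all genes. DNA copy number was not measured here, and its part was not tested.

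In several places neighbouring genes of 1 line stood apart together, and 2 blocks chosen after their values were seen are described, with positions from GENCODE M21 (GRCm38). On chromosome 5, from 3341485 to 4104746, all 8 genes of mean at least 100 reported here were highest in A2441, by 2.47 to 8.33 times over the highest other line. The block starts with Cdk6, the cell cycle kinase that pairs with D-type cyclins, with 1811 in A1693, 3093 in A1809, 1841 in A1925, 22508 in A2441 and 3415 in A3992. Krit1, a protein of endothelial junctions, had 654, 1048, 781, 8357 and 1047, and Cyp51, a cholesterol synthesis enzyme, had 2148, 4984, 6732, 16716 and 6779.9. The next gene of this level, Fzd1, did not part A2441 from the others (311, 2818, 2491, 3321 and 685), but farther along Cfap69 was again highest in A2441, at 4.59 times the highest other line. Cyp51 stood apart from its pathway, since the list of cholesterol synthesis genes as a whole was lowest in A2441 (10.24, 10.92, 10.74, 9.79 and 10.88).

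On chromosome 11, from 4637747 to 6200415, 21 of 23 neighbouring genes of mean at least 100 were lowest in A3992, at 0.189 to 0.521 of the mean of the other 4 lines over all 23 (median 0.346). The exceptions were Nipsnap1 and Aebp1. Nf2, the tumour suppressor merlin, had 2504 in A1693, 2225 in A1809, 3035 in A1925, 2749.7 in A2441 and 896 in A3992, Ewsr1, an RNA-binding protein, had 8244, 4328, 6333, 4275 and 2087, and Pold2, a subunit of DNA polymerase delta, had 2403, 1099, 1922, 1672 and 507. The genes on each side did not share this: Mtmr3 before the block had 2047, 1335, 2426, 1662 and 1819 and Ddx56 after it had 1927, 1221, 1600.2, 1373 and 1567. On chromosome 5, Akap9 and Cyp51 overlap only at their ends, from 4081145 to 4081310. Reads of these 2 genes in that stretch cannot be told apart, for the same reason as those of Xist and Tsix.

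**Figure D5:**
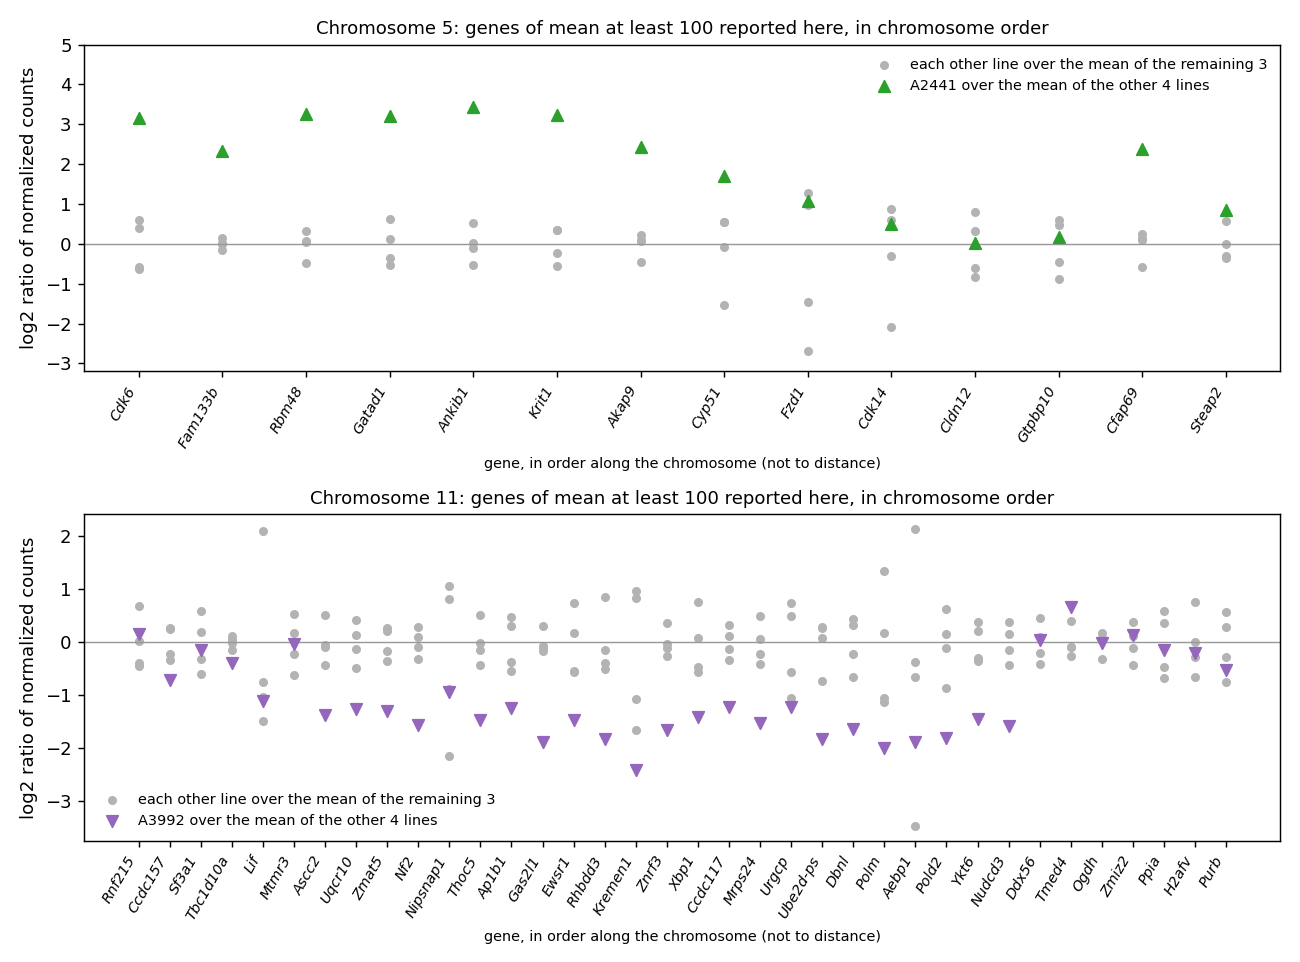
Log2 ratio of normalized counts (y axis) for genes in their order along chromosomes 5 (top) and 11 (bottom). Coloured points are the named line over the mean of the other 4, and grey points are each other line over the mean of the remaining 3; A2441 lies above every grey point from Cdk6 to Cyp51 and again at Cfap69, and A3992 lies between 0.189 and 0.521 of the other lines from Ascc2 to Nudcd3.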

How the data were processed

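Each deposited value is a signal of at least 0, in which a gene's count was divided by the size factor that DESeq2 gave the authors for that line. Per the submitters' processing notes, reads were handled with bcl2fastq 1.8.4 and Trimmomatic 0.36, STAR 2.5.2b and the featureCounts program of Subread 1.5.0p3. The same notes list R 3.3.2 with DESeq2 1.14.1, and 2 builds (GRCm38.p5 and mm9) without saying what each was for. Which annotation and strand setting the counting used is not given in the sources used here. Per the labels' protocols, RNA from cells in DMEM with serum was made into stranded TruSeq mRNA libraries.

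Of 49568 genes, 23039 were at 0 in all 5 lines, and 47313 symbols (95.5%) were found in GENCODE M21 (GRCm38), which gave positions and lengths. Dividing by the value of 1 read gave whole reads for 100.0% of values within 0.001 read. No library is a copy of another (lowest chi-square per degree of freedom 97.3). Calculations were made in Python 3.11.15 with numpy 2.4.6, pandas 2.3.3 and scipy 1.17.1 on log2(value + 1), over genes of mean at least 100, and figures with matplotlib 3.10.9. With 1 group of 5 libraries no test between groups was possible, so edgeR's count test was not run; edgeR 4.0.16 in R 4.3.3 gave TMM factors and dispersions from the recovered reads. Promoters came from RefSeq (GRCm38.p6).

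The lines, members and lists were chosen with earlier results of these data known. Unnamed genes (Gm, Rik and clone-based symbols) and pseudogenes were left out of the rankings that chose named genes. Named genes follow a rule: the most abundant, the least and most variable, those nearest to Cdh1 in each order, those farthest from the next line, and the most and least variable and most abundant members of each list. Genes named outside it, after their values were seen, are Spint2, Snai1, Snai2, Zeb1, Tagln, Cdx2, Aqp5, Car2, Cftr, Cp, Ptprc, Pecam1, Lum, Axin2, Smad4, Myc, the Y-linked genes, low or absent cell type markers and the genes of the 2 chromosome blocks. Some genes are not reported here. Other settings were other pseudocounts, filters and scalings, and each line left out in turn.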

Additional observations from a re-analysis of the deposited data

Results flagged for a closer look

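In a set of 5 lines, a line was singled out where its gap to the nearest line exceeded 0.71 of the whole range (Dixon's 95% limit, on the log2(normalized count + 1) scale). Of 39 list levels 3 passed this limit, and of the 153 genes whose 5 values are printed 28 did. Chance alone singles out about 1 in 20 where items are not chosen by their values. However, 78 of the 153 genes, and 19 of the 28, were chosen by rules or searches that used the distance between lines, among them Pdx1, Cdh1, Ehf and the genes farthest from the next line. Other genes were chosen for their spread over the same 5 lines or after their values were seen, such as Zeb1. The choice therefore bears on the outcome, and the rate of 1 in 20 does not apply to the 153 genes. The ratios are descriptions and not tests.

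A1693 was the lowest line in Pdx1 (0.874 of the range), Cdh1 (0.808), Xist (0.849), Ehf (0.857), Card10 (0.756), Foxa2 (0.770) and Gata6 (0.771). It was also lowest in Ak3 (0.958), Pcdh1 (0.855) and Anxa10 (0.733), and in the level of the cadherin list (0.768). It was highest in Usp7 (0.926) and in the level of the spliceosome and RNA polymerase II list (0.848).

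A1809 was highest in Rab25 (0.80), Il1a (0.742) and Tmem30b (0.867), and in the level of the germline and pluripotency list (0.737), none of whose members reached a mean of 100. It was lowest in the mesenchymal genes Zeb1 (0.868), Twist1 (0.754), Cdh2 (0.807) and S100a4 (0.774), and in Amigo2 (0.867) and Xdh (0.843).

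A1925 was highest in Dkk1 (0.801) and mt-Co1 (0.789). A2441 was highest in Casp1 (0.770) and in 2 neighbours on chromosome 5, with 0.748 for Cdk6 and 0.815 for Krit1, and lowest in Mdm2 (0.713). A3992 was highest in Trp53 (0.803) and lowest in Nf2 (0.745).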

How the results depend on the processing

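No paired analysis was possible because the 5 lines form 1 group. With 1 line left out, the genes with a 16-fold range numbered 672 to 981 (1036 with all 5), constant genes 1939 to 2419 (1409), genes in the order of Cdh1 338 to 501 (173), genes in its reverse 267 to 328 (105), genes that set 1 line apart 194 to 412 (292), lists with a range of at least 2 from 5 to 12 (13), and chromosome medians beyond 0.3 from 2 to 4 (5). Fewer lines make a shared order and a small range easier to meet. With no filter on the mean, 26529 genes were counted, of which 2618 had a 16-fold range, 273 and 172 followed the order of Cdh1 and its reverse, and 468 set 1 line apart. A median of at least 100 in place of the mean gave 689 and 185 for the range and for genes apart, since it drops genes high in 1 line. A pseudocount of 10 gave 146 genes apart and 8 lists. TMM scaling left all counts within 1.5 times. Settings added after the data were seen were the tie of A1925 and A3992, and edgeR dispersions, whose top 1036 genes shared 956 (92.3%) with those of 16-fold range. Of 158 named genes, the range of 53 moved by more than 1 SD without A1693, and of 9 with quantile normalization. Genes under about 10 normalized counts in a line rest on few reads.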
